A study of Homo sapiens with 4 samples.

Results

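The untreated RPL4 mutant was set directly against erythromycin-treated wild type, to ask where a change in the ribosomal exit tunnel and a drug of the tunnel go with alike or different ribosome footprint levels. These are 2 of the 4 libraries of a Ribo-seq series on HEK293, an established human embryonic kidney cell line, taken by their genotype and treatment labels. Ribo-seq sequences the mRNA stretches that ribosomes shield from nuclease. The 4 groups were wild type without erythromycin, wild type with erythromycin, RPL4 mutant without erythromycin and RPL4 mutant with erythromycin, with 1 library each. The treatment text, shared by all libraries, names stable lines that carry GFP, RPL4 or an RPL4 without its loop, each infected with lentivirus for a short hairpin RNA against RPL4 or for a scrambled control. Which of these constructs each library carried, the number of clones, and the drug's dose and duration are not given. Cycloheximide, which halts elongating ribosomes, and lactimidomycin, which halts initiating ones, are both named without saying which library received which. Genotype, drug and library therefore cannot be told apart in this comparison, since each side is 1 library that differs from the other in both labels.

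Every nascent protein leaves the ribosome through the exit tunnel of the large subunit. RPL4 (uL4) sends an extended loop into the wall of that tunnel, at its narrowest part. Erythromycin is a macrolide that binds the same region in bacterial ribosomes, and mitochondrial ribosomes are related to these, while the cytosolic ribosome of human cells binds it poorly. Chaperones of the HSP70 and HSP90 families receive many chains after they leave the tunnel, and the heat-shock factor HSF1 raises these chaperones when unfolded protein builds up.

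The wild type library with erythromycin held 2555613 reads and the untreated mutant 604506, so that the median gene had 91 reads in the first and 23 in the second. The untreated wild type library held 2965243 and the treated mutant 993461, and both serve here for side values. The 10 most-read transcripts took 8.07% (95% Wilson interval 8.004% to 8.14%) of reads in the untreated mutant and 5.76% (5.73% to 5.79%) in treated wild type. Of 10 HEK293 markers, 8 were at 5 RPKM (reads per kilobase of coding sequence, scaled to library size) or more in each of the 4 libraries, led by VIM. Markers of blood cells, fibroblasts and hepatocytes summed to 10.9, 7.90 and 1.32 RPKM in the untreated mutant and to 8.95, 5.37 and 1.64 in treated wild type, with 5, 5 and 5 of the 8, 7 and 6 markers at 0 in the first and 5, 3 and 2 in the second. PTPRC, LYZ, HBA1, COL1A2 and DCN, defining markers of blood cells and fibroblasts, were listed in no library. Other members of these lists were detected. The highest blood cell marker was CD68, at 6.98 RPKM in treated wild type and 6.21 in the untreated mutant. The highest fibroblast marker was COL1A1, at 4.10 and 6.40 in that order.

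Ratios below are log2 of untreated mutant over treated wild type, on RPKM plus 1, with the median of the 9612 genes analysed set to 0. Brackets hold the 95% counting interval of the ratio of reads. With 1 library a side there is no replicate check, and no p is given. Intervals cover counting error only, and may be too narrow even for that, since PCR copies are not independent molecules. All libraries are of footprints, so mRNA level and translation cannot be separated, and less footprint per cell cannot be told apart from fewer cells that carry it.

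Most genes had similar levels on both sides. The quartiles over all genes were −0.31 and 0.36. A total of 566 genes (5.89% of 9612) reached a 2-fold higher level in the untreated mutant, and 344 (3.58%) a 2-fold lower one. The higher genes made up 62.2% of these, against 52.0% with TMM factors and 75.2% when libraries were scaled to a common sum without the most-read transcripts. At 1.5-fold, 1413 (14.7%) were higher and 1066 (11.1%) lower, and which side held more genes depended on the scaling, with 1135 higher and 1400 lower under TMM factors and 1877 and 740 under the common sum. Of the genes, 4259 had under 20 reads in the untreated mutant and 744 in treated wild type. The whole counting interval lay at or past 2-fold for 133 genes (1.38%) on the higher side and for 17 (0.177%) on the lower.

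**Figure D1:**
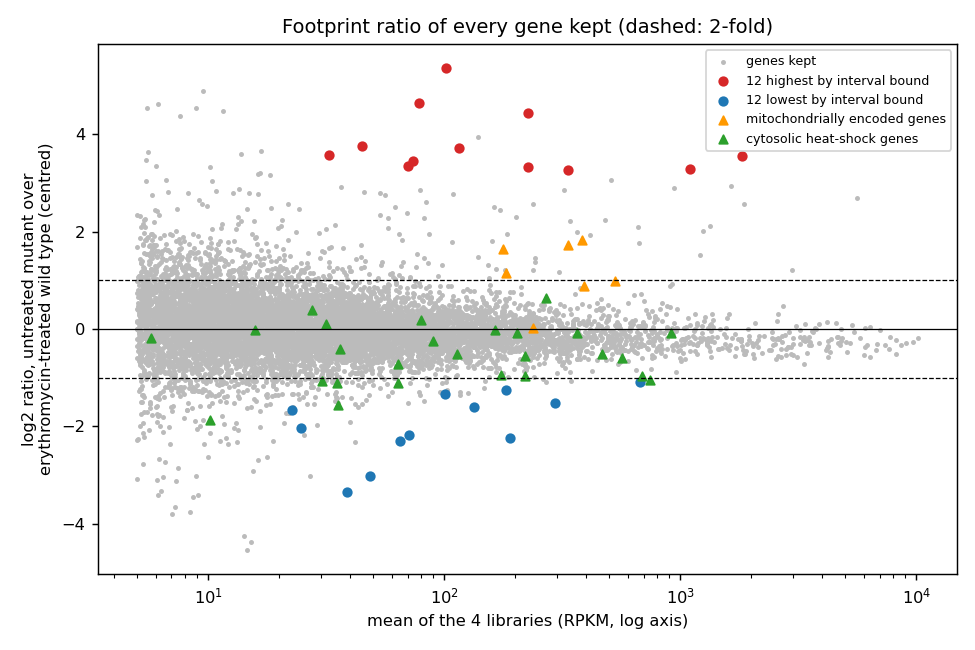
Each grey point is 1 of 9612 genes, with its mean over the 4 libraries (RPKM, log axis) against its centred log2 ratio of untreated mutant over treated wild type. Red and blue points are the 12 highest and 12 lowest genes by the interval bound nearest 0, orange triangles the 7 mitochondrially encoded genes, all above 0, and green triangles the 26 cytosolic heat-shock genes, 22 of them below 0.

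The ratio was lower among genes of high level, against which lists of highly translated genes are set below. The 1721 genes whose mean reached 100 RPKM had a median of −0.14, and 1145 (66.5%) were below 0, where 50.0% of all genes are by construction. In this stratum 123 genes (7.15%) were at least 1.5-fold lower and 82 (4.76%) higher, and 18 (1.05%) were at least 2-fold lower and 45 (2.61%) higher.

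RPL4 itself had fewer footprints in the untreated mutant than in treated wild type. Its level (chromosome 15, 66498015 to 66504883, minus strand, GRCh38) was 2515 and 2586 RPKM in wild type without and with erythromycin, and 1707 and 1439 in the mutant in that order. The same order is kept below for wild type and mutant pairs, and other pairs give treated wild type first and the untreated mutant second. Both mutant libraries were thus below both wild type libraries. The ratio was −0.59 [−0.67, −0.50], from 1325 reads against 8486. Since a transgene and the endogenous gene would be read together, this value does not check the genotype label. The other proteins at the tunnel and its exit were shifted less. Of the 8 analysed, RPL4 included, 7 were below 0, with a median of −0.31. At 1.5-fold, 1 of the 8 was lower, where 11.1% of all genes and 7.15% of those of at least 100 RPKM were. RPL35, at the rim of the exit port, was at 8138 RPKM in treated wild type and 6421 in the untreated mutant (−0.33 [−0.41, −0.25]). RPL23A, the docking site for the signal recognition particle, was at 4934 and 3990.0 (−0.29 [−0.38, −0.21]), and RPL19, on the same rim, at 5377 and 4495 (−0.25 [−0.32, −0.17]). RPL39, the small protein of the tunnel's lower part, was the exception at 4608 and 4973 (0.12 [−0.03, 0.27]).

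Genes encoded in mitochondrial DNA, which are translated inside the organelle by its own ribosomes, had the median farthest from 0 of the 34 lists. Whether erythromycin bound these ribosomes was not tested. All 7 analysed were above 0; in the untreated mutant 6 were higher by 1.5-fold or more (14.7% of all genes were) and 4 by 2-fold or more (5.89%), with a median of 1.15 (quartiles 0.94 and 1.70). Beside untreated wild type the median was −0.96 for the treated wild type library and 0.47 for the untreated mutant. Both values share the untreated wild type library. The other 6 mitochondrially encoded protein genes were listed in no library, so they could not be analysed. Why they are absent is not given, and absence need not mean that they had no footprints. In shares of all reads, the list took 0.0816% (0.0782% to 0.0852%) in treated wild type, 0.144% in untreated wild type and 0.229% (0.218% to 0.242%) in the untreated mutant. The treated mutant stood at 0.224%.

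Subunits of cytochrome c oxidase lay farthest apart. MT-CO1, its core subunit (mitochondrial DNA 5904 to 7445), was at 331 and 166 RPKM in wild type without and with the drug and at 588 and 454 in the mutant (1.83 [1.67, 2.00]). MT-CO2, which takes electrons from cytochrome c, was at 314 and 128 in the wild type pair and 426 and 477 in the mutant pair (1.74 [1.45, 2.04]). Treated wild type was thus the lowest of the 4 libraries for both. MT-ND5, a proton-pumping subunit of complex I, was at 130.5 and 93.3 in the wild type pair and 293 and 191 in the mutant pair (1.65 [1.45, 1.88]). MT-ND6, the complex I subunit on the opposite strand, was at 357 and 285 in the wild type pair and 564 and 911 in the mutant pair (0.99 [0.73, 1.26]). It lies next to MT-ND5 on mitochondrial DNA, and whether the authors counted by strand is not given in the sources used here. MT-ND4L, a small subunit of complex I, was the 1 gene near 0. It was at 316 RPKM in untreated wild type, 149 in treated wild type and 150.4 in the untreated mutant (0.03 [−0.64, 0.64]), from 113 and 27 reads, while the treated mutant was at 339. Both libraries compared were thus below untreated wild type by similar amounts.

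The genes of 2 ATP synthase subunits overlap, and reads there can be given to either gene. MT-ATP8 (8366 to 8572) and MT-ATP6 (8527 to 9207) overlap by 46 bases at chrM:8527-8572 on the plus strand (GRCh38, from the GENCODE 29 transcripts), within the 207 bases of MT-ATP8. The shared stretch is shown because footprints on it cannot be assigned to 1 gene, with the start codon of MT-ATP6 in capitals:

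MT-ATP8 and MT-ATP6 overlap: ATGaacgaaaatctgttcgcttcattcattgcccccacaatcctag

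MT-ATP6, the proton channel subunit, was at 196 and 98.8 RPKM in the wild type pair and 219 and 217 in the mutant (1.15 [0.77, 1.53]). MT-ATP8 was at 327 and 200.4 in the wild type pair and 368 and 666 in the mutant pair (0.89 [0.36, 1.40]). The treated wild type library was the lowest of the 4 for both genes.

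**Figure D2:**
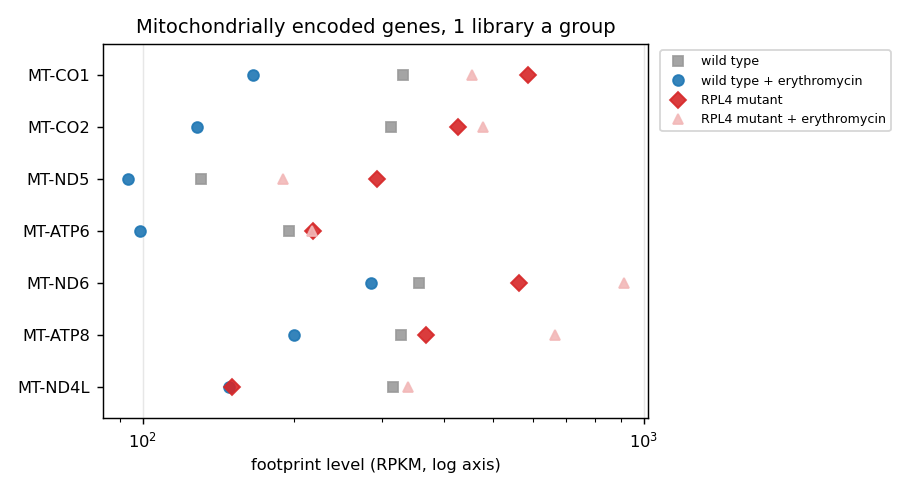
Footprint level (RPKM, log axis) of each of the 7 mitochondrially encoded genes in each of the 4 libraries, 1 point a library. The treated wild type point (blue circle) is the lowest of the 4 in each gene, and the untreated mutant (red diamond) lies to its right in all but MT-ND4L, where the points stand at 149 and 150.4 RPKM.

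The nuclear partners of these genes were near the median gene. The 72 nuclear-encoded subunits of oxidative phosphorylation had a median of −0.06, with 30 above and 42 below 0. At 1.5-fold, 1 was higher (14.7% of all genes were) and 0 lower (11.1%). The sign of the median changed with the scaling. Beside untreated wild type, which both share, the medians were −0.17 in treated wild type and −0.17 in the untreated mutant. COX7C, a small cytochrome c oxidase subunit, was at 3248 RPKM in untreated wild type, 2857 in treated wild type and 2714 in the untreated mutant (−0.06 [−0.24, 0.12]). COX6A1, of the same enzyme, was at 1907 and 1895 (0.00 [−0.16, 0.17]), and NDUFA3 of complex I led the list at 579 and 1096 (0.93 [0.66, 1.20]). Mitochondrial ribosomal proteins (76) were at −0.08 with 32 above 0, a sign that also changed with the scaling, and mitochondrial translation factors (30) at 0.10 with 16 above 0. TUFM, the elongation factor of the organelle, was at 206 and 242 RPKM (0.25 [0.01, 0.47]). MRPL35, a large-subunit protein, stood off from its list at 489 and 2115 (2.12 [1.97, 2.28]), with 294 in untreated wild type and 2452 in the treated mutant.

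Cytosolic heat-shock genes had the lowest median of the 34 lists. Of the 26 analysed, 22 were below 0, 11 were lower by 1.5-fold or more (11.1% of all genes were) against 1 higher, and 6 by 2-fold or more (3.58%) against 0 higher, with a median of −0.50 (quartiles −0.97 and −0.08). The treated wild type library was above untreated wild type (list median 0.30) and the untreated mutant below it (−0.26), with that library shared by both values. The list took 1.11% (1.10% to 1.13%) of reads in treated wild type, 0.893% in untreated wild type, 0.709% (0.688% to 0.731%) in the untreated mutant and 0.634% in the treated mutant.

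Within the list, J-domain and exchange factors had a median of −0.95 (6 of 6 below 0). The HSP90 family with its co-chaperones was at −0.52 (8 of 8) and the HSP70 family at −0.50 (7 of 7). Small heat-shock proteins, grouped with HSF1, HSF2 and SERPINH1, were at 0.19 (1 of 5). HSPA8, the constitutive HSP70, was at 825 and 1114 RPKM in wild type without and with erythromycin and at 536 and 510.3 in the mutant (−1.04 [−1.16, −0.92]). HSPH1, a nucleotide exchange factor for HSP70, was at 39.6 and 54.2 in the wild type pair and 24.3 and 22.6 in the mutant pair (−1.11 [−1.67, −0.66]). Both mutant libraries were below both wild type libraries for these 2 genes. BAG3, which links HSP70 to autophagy, was at 52.7 and 53.2 in the wild type pair and 17.2 and 19.2 in the mutant pair (−1.56 [−2.39, −0.92]), from 235 and 18 reads in the 2 libraries compared. DNAJA1, a J-domain protein that loads HSP70, was at 236 and 320 in the wild type pair and 162 and 166 in the mutant pair (−0.96 [−1.26, −0.69]), and DNAJB1, its heat-inducible relative, was at 227 in treated wild type and 116 in the untreated mutant (−0.95 [−1.33, −0.60]). For these 5 genes the highest library was treated wild type, though for BAG3 the wild type pair was near equal. HSPA1B, the inducible HSP70, was at 91.2 and 41.2 (−1.11 [−1.59, −0.70]) and its near-identical copy HSPA1A at 45.3 and 33.5 (−0.41 [−0.95, 0.07]), and how reads were split between these copies is not given in the sources used here.

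Both cytosolic HSP90 genes were lower, and the co-chaperones were divided. HSP90AB1 was at 759 and 1006 RPKM in the wild type pair and 509 and 484 in the mutant (−0.97 [−1.09, −0.85]), and HSP90AA1 was at 625 and 762 in the wild type pair and 499.8 and 389 in the mutant pair (−0.59 [−0.71, −0.49]). STIP1, which bridges HSP70 and HSP90, was at 283 and 192 in the 2 libraries compared (−0.54 [−0.77, −0.33]) and FKBP4 at 570.2 and 398 (−0.50 [−0.68, −0.34]). AHSA1, CDC37 and PTGES3, other HSP90 partners, had ratios between −0.09 and −0.08 with intervals that included 0. Small heat-shock proteins lay on the other side of 0. HSPB1 was at 280 and 196 in the wild type pair and 305 and 298 in the mutant pair (0.65 [0.33, 0.96]), so that here treated wild type was the lowest library. HSPB8 was at 27.8 and 36.4 (0.39 [−0.62, 1.33]), from 42 and 13 reads. HSF2, a heat-shock factor, was at 40.3 and 18.5 (−1.07 [−1.90, −0.41]), and HSF1 at 29.3 and 31.2 (0.10 [−0.52, 0.69]).

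**Figure D3:**
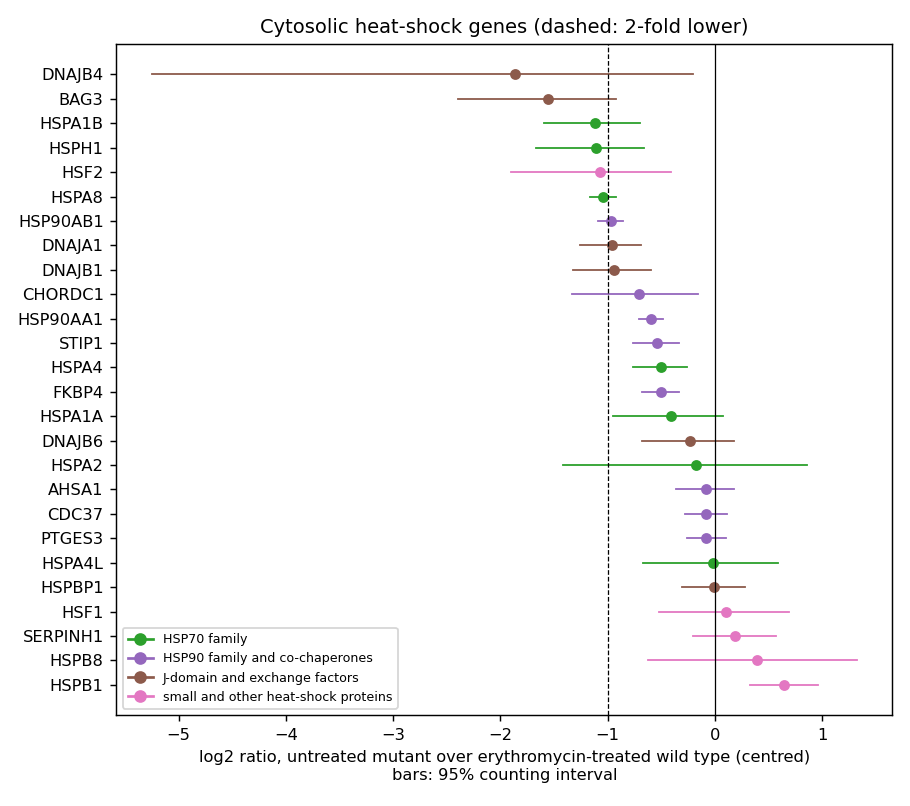
Centred log2 ratio of untreated mutant over treated wild type for each of the 26 cytosolic heat-shock genes, with the 95% counting interval as a bar and the colour giving the family. Of the 26 points, 22 lie left of 0 and 6 left of the dashed 2-fold line, and HSPB1 is the 1 gene more than 1.5-fold to the right.

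Promoters of the list were searched for the letters of the heat-shock element, since HSF1 binds inverted repeats of GAA. In the 250 bases before the start site (RefSeq, GRCh38.p14), GAANNTTC or TTCNNGAA, each its own reverse complement so that both strands are covered, occurred in 9 of the 24 promoters found for the list (37.5%), in 640 of 7678 promoters of genes analysed (8.34%) and in 3208 of all 27305 (11.7%). The 2 motifs overlap where GAA units repeat. In the stretches shown for HSPA8 and CHORDC1, further matches are not marked. The windows below are shown to set genes on the low side (HSPA8, HSPA1B, DNAJA1, CHORDC1) beside those on the high side (HSPB1, HSPB8), with a match in capitals:

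HSPA8 (chr11:123062168-123062197, minus strand): ggccccttctgGAAGGTTCtaagatagggt
HSPA1B (chr6:31827622-31827651, plus strand): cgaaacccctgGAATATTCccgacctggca
DNAJA1 (chr9:33025064-33025093, plus strand): aaagggctccaGAAGATTCcacgagcgccg
CHORDC1 (chr11:90223081-90223110, minus strand): ggaaaattcgcGAAGGTTCctgaaacgcaa
HSPB1 (chr7:76302480-76302509, plus strand): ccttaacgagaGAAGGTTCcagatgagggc
HSPB8 (chr12:119178832-119178861, plus strand): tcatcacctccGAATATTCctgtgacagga

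The same letters stood in promoters of genes on both sides of 0. CHORDC1, an HSP90 partner with 6 matches in its window of 250 bases, was at 79.9 RPKM in treated wild type and 48.0 in the untreated mutant (−0.71 [−1.34, −0.16]). HSPH1, BAG3, DNAJB1 and HSP90AB1 had no match in that window and were among the lowest of the list. A match is a description of letters and not of binding.

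The endoplasmic reticulum's folding machinery lay near the median gene. The 27 genes of the unfolded protein response had a median of −0.04, whose sign changed with the scaling, with 13 above and 14 below 0. At 1.5-fold, 2 of these genes were higher (14.7% of all genes were) and 3 lower (11.1%). Their medians beside untreated wild type, shared by both values, were 0.22 in treated wild type and 0.11 in the untreated mutant. CALR, a lectin chaperone, was at 480.3 RPKM in untreated wild type, 614 in treated wild type and 620.0 in the untreated mutant (0.03 [−0.12, 0.17]). PDIA6, a disulphide isomerase, was at 146, 191 and 207 (0.13 [−0.11, 0.36]) in that order, and P4HB at 307, 342 and 387 (0.19 [0.02, 0.36]). Both libraries were above untreated wild type for these 3 genes. CANX, the membrane-bound lectin chaperone, differed at 248, 357 and 218 (−0.70 [−0.91, −0.50]), and SEL1L, which anchors the degradation complex of that membrane, was at 19.2 and 9.71 in the 2 libraries compared (−0.90 [−1.89, −0.17]).

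ATF4 targets, which supply amino acids when initiation is restrained, were below 0 in 20 of 25, with a median of −0.31, and 5 were at least 1.5-fold lower (11.1% of all genes were) against 2 higher (14.7%). DDIT3 (CHOP) was at 15.7 RPKM in untreated wild type, 53.4 in treated wild type and 25.7 in the untreated mutant (−1.01 [−2.22, −0.04]), from 79 and 9 reads. The GADD45 family of growth-arrest genes was highest in the same library. GADD45B was at 31.1, 177 and 62.3 (−1.48 [−2.23, −0.83]), GADD45A at 77.9, 162 and 66.4 (−1.26 [−2.01, −0.61]) and GADD45G at 17.6, 36.7 and 10.3 (−1.72 [−4.14, −0.17]), the last from 3 reads in the untreated mutant. Treated wild type was the highest of the 4 libraries for all 3. CDKN1A, the p53-induced inhibitor of the cell cycle, was at 226, 387 and 277 (−0.46 [−0.82, −0.13]), while 15 of 21 p53 pathway genes were above 0, with a median of 0.17. Among NRF2 targets and antioxidant enzymes, with 10 above and 15 below 0 (median −0.19), the lowest was HMOX1, the heme-degrading enzyme, at 131, 175 and 66.8 (−1.36 [−1.92, −0.88]). Lysosome and autophagy genes had 13 above and 18 below 0, with a median of −0.05 whose sign changed with the scaling, and the lowest was SQSTM1, an autophagy receptor, at 232, 326 and 181 (−0.83 [−1.09, −0.58]). NUPR1, a small stress-induced chromatin protein, was the highest of the ATF4 list, with 3 reads in treated wild type and 11 in the untreated mutant (3.66 [2.05, 6.45]), and it was absent from the treated mutant.

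Immediate early genes (24, median −0.13, 10 above 0) and hypoxia targets (16, −0.16, 7 above 0) lay nearer 0 as lists. JUN, a subunit of the AP-1 factor, was at 175 and 133 RPKM (−0.38 [−0.75, −0.04]) in the 2 libraries compared. Within the hypoxia list single genes lay far apart in both directions. ANKRD37, a target of HIF1, was at 471 and 114 in the wild type pair and 535 and 794 in the mutant pair (2.24 [1.91, 2.59]), and KDM3A, a histone demethylase, at 20.9 and 30.0 in the wild type pair and 11.2 and 20.0 in the mutant pair (−1.33 [−2.03, −0.84]).

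Ribosomal proteins, translation factors, aminoacyl-tRNA synthetases and ribosome biogenesis factors lay below the median gene in the untreated mutant as lists. Their medians were also lower than that of genes of at least 100 RPKM, which are not matched to these lists in level. Large-subunit proteins outside the tunnel list (37) had 37 below 0, with a median of −0.29, and small-subunit proteins (33) had 31 below 0, with −0.37, where the median of genes of at least 100 RPKM was −0.14. At 1.5-fold, 1 gene of each list was lower, where 11.1% of all genes and 7.15% of those of at least 100 RPKM were. In both lists 0 were higher by that much, where 14.7% and 4.76% were. RPS19, mutated in Diamond-Blackfan anaemia, was at 6858 RPKM in untreated wild type, 7185 in treated wild type and 4906 in the untreated mutant (−0.54 [−0.62, −0.45]). RPL37A was at 8345, 9463 and 6564 (−0.51 [−0.61, −0.42]). RPS21 was above 0, at 2464 and 3012 in the 2 libraries compared (0.30 [0.16, 0.45]). The small-subunit proteins took 6.25% (6.22% to 6.28%) of reads in treated wild type and 4.82% (4.77% to 4.88%) in the untreated mutant.

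Elongation and termination factors (11) had a median of −0.43, with 9 below 0. EEF1A1, which delivers tRNA, was at 8024 and 5909.5 RPKM (−0.43 [−0.47, −0.38]), EEF2, the translocase, at 1624 and 1184 (−0.44 [−0.51, −0.37]) and EIF5A, which relieves stalls at proline, at 1282 and 926 (−0.46 [−0.63, −0.28]). Initiation factors (36) were at −0.21 with 30 below 0, aminoacyl-tRNA synthetases (22) at −0.20 with 16 below 0, and ribosome biogenesis factors (62) at −0.22 with 49 below 0 and 10 at least 1.5-fold lower (11.1% of all genes were). NPM1, the nucleolar chaperone, was at 2931 and 2051 (−0.50 [−0.60, −0.41]) and WDR12, a large-subunit assembly factor, at 48.0 and 22.1 (−1.07 [−1.92, −0.38]). Factors that clear stalled ribosomes (20) and those of nonsense-mediated decay (15) were at −0.07 and 0.07, with signs that changed with the scaling. VCP, the ATPase that extracts stalled chains, was at 224 and 128 (−0.80 [−1.03, −0.58]), and NEMF, which tags them, at 7.51 and 13.3 (0.76 [0.12, 1.52]).

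Chaperones that meet the chain at the ribosome were also lower. The chaperonin that folds actin and tubulin had 8 of 8 subunits below 0 with a median of −0.49, and prefoldin, which hands chains to it, 5 of 6 with −0.19. TCP1 was at 414 RPKM in untreated wild type, 460.1 in treated wild type and 296 in the untreated mutant (−0.62 [−0.80, −0.45]), and CCT7 at 759, 878 and 578 (−0.59 [−0.72, −0.46]). ACTB, the actin it folds, was at 4799, 3743 and 3987 (0.10 [0.04, 0.17]), the last 2 both below untreated wild type. Nascent-chain binding factors (11) had 9 below 0 and a median of −0.29, with BTF3, the beta subunit of the nascent-polypeptide-associated complex, at 1553 and 1191 (−0.37 [−0.52, −0.22]). Signal recognition and translocation genes (28) were nearer the middle, at −0.14 with 11 above 0.

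**Figure D4:**
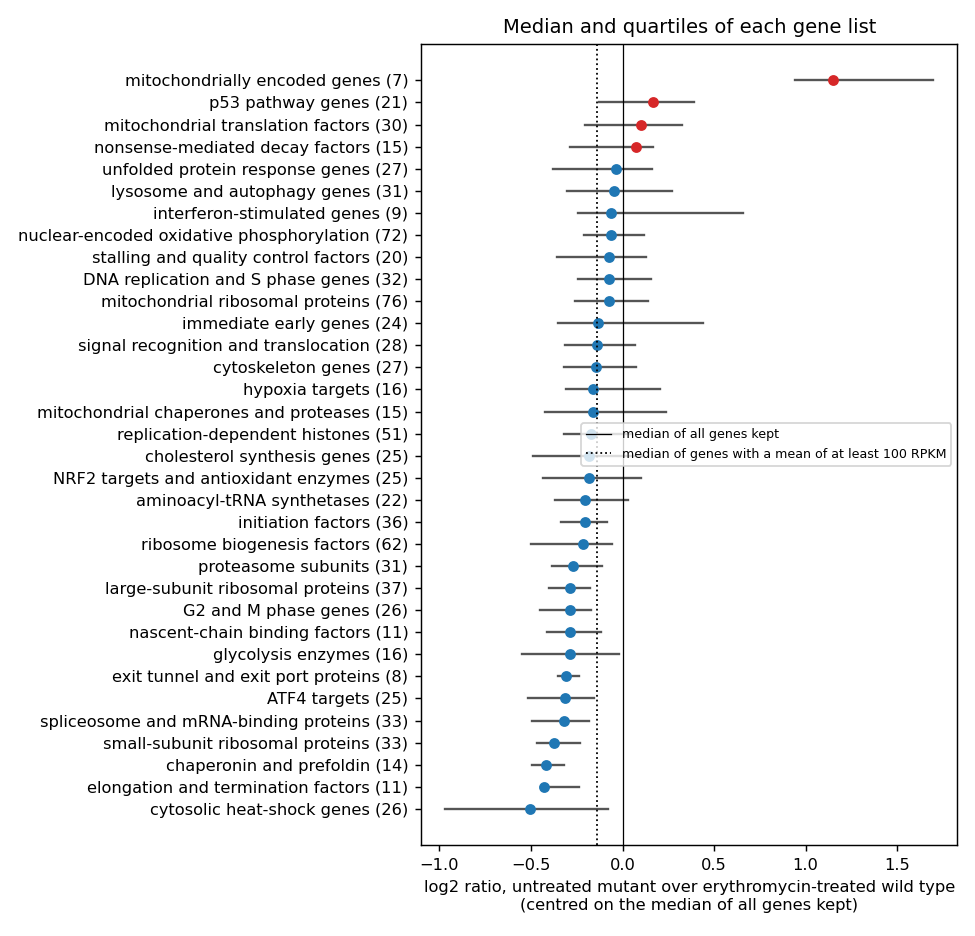
Median (point) and quartiles (bar) of the centred log2 ratio of untreated mutant over treated wild type for 34 gene lists, with the number of genes analysed in parentheses. The mitochondrially encoded genes stand alone on the right at 1.15, cytosolic heat-shock genes are lowest at −0.50, and the dotted line marks the −0.14 of genes of at least 100 RPKM.

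Other housekeeping lists lay between −0.32 and −0.07. The 19S cap of the proteasome, which unfolds its substrates, had 17 of 18 subunits below 0 (median −0.31; PSMC2 at 295 and 169 RPKM, −0.79 [−1.07, −0.53]) and the 20S core 8 of 13 (−0.16; PSMB4 at 881 and 903, 0.05 [−0.11, 0.20]). Spliceosome and mRNA-binding proteins (33) had 29 below 0 and a median of −0.32, and genes of G2 and M phase (26) 22 and −0.29. Glycolysis enzymes (16) had 12 below 0 with a median of −0.29, but the members differed. ENO1, enolase, was at 3837, 4497 and 2694 in untreated wild type, treated wild type and the untreated mutant (−0.73 [−0.79, −0.66]), whereas GAPDH was at 7475, 5945 and 5995 (0.03 [−0.03, 0.08]). Replication-dependent histones (51), near-identical copies between which reads may be split, had a median of −0.17 with 33 below 0, and HIST1H3B was at 12365, 10084 and 8267 (−0.27 [−0.34, −0.21]). DNA replication genes (32) were at −0.07, a sign that changed with the scaling, with CDT1, which licenses origins, at 155 and 401 (1.38 [1.20, 1.57]).

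The cholesterol synthesis list (25) had a median of −0.18, with 8 above and 17 below 0. HMGCS1, which makes the precursor of mevalonate, was at 147 RPKM in untreated wild type, 200.3 in treated wild type and 84.7 in the untreated mutant (−1.22 [−1.58, −0.90]), and INSIG1, a sterol sensor, was at 198, 281 and 190.4 (−0.54 [−0.87, −0.23]). SREBF1, the transcription factor of lipid synthesis, was at 13.4, 5.98 and 15.0 (1.21 [0.66, 1.99]). Treated wild type was thus the highest of these 3 libraries for the first pair and the lowest for SREBF1.

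The 12 highest genes spanned a wide range of levels. RASD1, a small GTPase, was at 3.99 and 8.33 RPKM in wild type without and with the drug, 379 in the untreated mutant and 16.7 in the treated mutant (5.36 [4.82, 6.31]). GFAP, the intermediate filament of astrocytes, was at 6.15 and 8.02 in the wild type pair and 222 and 77.2 in the mutant pair (4.64 [4.22, 5.45]). NANOS3, an RNA-binding protein of germ cells, was at 61.2 and 25.7 in the wild type pair and 571 and 252 in the mutant pair (4.44 [3.98, 5.03]). For each of these genes the treated mutant lay between wild type and the untreated mutant. For RASD1 it was near wild type but above both of those libraries, from 14 reads. SAMD9 (3.76), MACROD1 (3.72), GMIP (3.57), MROH9 (3.56), DUSP15 (3.44), TMPRSS9 (3.35), KAT7 (3.34), ACIN1 (3.29) and MEIS1 (3.28) completed the 12 highest by the interval bound nearest 0. KAT7, a histone acetyltransferase, had 697 RPKM in the untreated mutant and 89.4 in the treated one, against 50.9 and 68.6 in wild type, while MEIS1, a homeobox factor, had 736 and 475 against 53.8 and 75.6.

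Single transcripts weighed more in the untreated mutant than in treated wild type. DUXAP10, a transcribed pseudogene, led that library with 6934 reads, followed by MROH9 (6590), ACIN1 (6330), ZNFX1 (6010) and ZNF107 (5581). In treated wild type the most-read were EEF1A1, HIST1H1E, GAPDH, RPS4X and ENO1. DUXAP10 was at 1448 and 2836 RPKM in wild type, 18121 in the untreated mutant and 90.6 in the treated mutant (2.69 [2.63, 2.74]), so its level did not go with genotype. Whether such reads fall on 1 position of a transcript was not tested.

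The 133 genes were also compared between the treated mutant and untreated wild type. Both of these libraries entered the filter on mean level, through which a gene can pass by its level in the mutant alone, so the counts are a description. Of the 133 genes whose whole interval lay at or past 2-fold higher, 89 (66.9%) also reached a 2-fold higher level in the treated mutant than in untreated wild type, where 649 (6.75%) of all 9612 genes were. Their median in that second comparison was 1.505 (quartiles 0.72 and 2.50). The 133 genes had a median of 11.02 RPKM in untreated wild type, 7.90 in treated wild type, 51.9 in the untreated mutant and 34.2 in the treated mutant, with 68 reads in the untreated mutant library. The 17 genes on the lower side had 6 reads there, and 7 of them (41.2%) were higher by that much in the treated mutant, with 1 lower, where 211 (2.20%) of all genes were lower.

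On the lower side the rule took, among others, genes that were high in treated wild type and genes that were low in the untreated mutant. HASPIN, the kinase that marks histone H3 in mitosis, was at 89.6 and 440.1 RPKM in the wild type pair and 91.1 and 136 in the mutant (−2.25 [−2.52, −2.01]), and TRPV2, a cation channel, was at 69.1 and 287 in the wild type pair and 98.0 and 723 in the mutant pair (−1.53 [−1.80, −1.28]). FOXN2, a forkhead factor (−1.60), and NAP1L2, a histone chaperone (−1.24), were likewise above untreated wild type in treated wild type. For these 4 the 2 untreated libraries were nearer each other than either was to treated wild type. OR11L1, an olfactory receptor, was at 63.3 and 63.4 in the wild type pair and 6.83 and 61.3 in the mutant pair (−3.03 [−5.10, −1.82]), from 4 reads in the untreated mutant, and CCDC82 was at 96.1 and 94.1 in the wild type pair and 18.2 and 51.1 in the mutant pair (−2.29 [−3.13, −1.68]). The untreated mutant alone was low for OR11L1, while for CCDC82 the treated mutant was also below both wild type libraries. LRRC6 (−3.35), HIST1H3I (−2.17), ACSL4 (−1.67), HIVEP3 (−1.33) and HPSE2 (−1.10) were also among the lowest. HIVEP3 was at 248 and 74.3 in the wild type pair and 28.6 and 51.7 in the mutant pair. HPSE2 was at 1290 and 604 in the wild type pair and 279 and 540 in the mutant pair. Untreated wild type was thus the highest library for both. HIST1H3I was at 20.1 in the untreated mutant and lower still, at 9.80, in the treated mutant.

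Some genes had near-equal levels in both libraries and yet lay far from untreated wild type. They were chosen by their ratios to that library, which both sides share, so the values are a description. On the higher side ITGB2, the integrin chain of white blood cells, was at 8.32 RPKM in untreated wild type, 93.8 in treated wild type and 114 in the untreated mutant (0.29 [0.03, 0.55]). IGSF22 was at 17.5, 163 and 177 (0.13 [−0.03, 0.29]) and FGF23, a hormone of phosphate balance, at 23.6, 112 and 136 (0.29 [−0.14, 0.71]). TMEM253, the cell adhesion molecule NCAM1 and the homeobox gene HOXD1 had ratios of 0.40, 0.41 and 0.16, and the treated mutant was above untreated wild type for all 6, at 95.9 to 885 RPKM. On the lower side USP1, a deubiquitinase of DNA repair, was at 686, 187 and 186 (0.01 [−0.19, 0.20]), and MCU, the pore of the mitochondrial calcium uniporter, at 129, 48.9 and 53.3 (0.13 [−0.45, 0.69]). EBF4 (0.41), CREG2 (−0.21), LRFN4 (0.05) and MT-ND4L (0.03) were the others, and of these CREG2 (967 in untreated wild type) and MT-ND4L were not below it in the treated mutant, at 2262 and 339 RPKM.

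**Figure D5:**
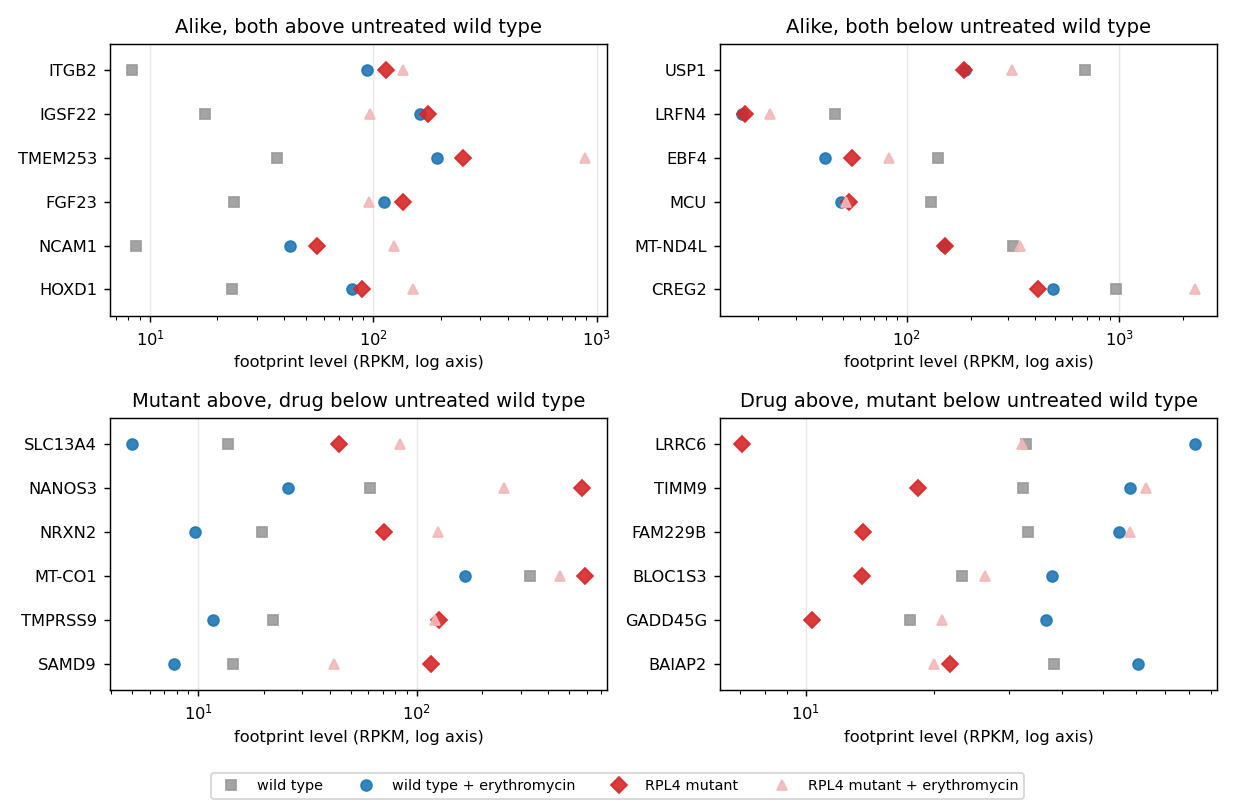
Footprint level (RPKM, log axis) in each of the 4 libraries, 1 point a library, for genes chosen as near-equal in the 2 libraries compared (top) or as lying on opposite sides of untreated wild type (bottom), 6 genes a panel. For USP1 the blue circle and red diamond coincide at 187 and 186 RPKM left of the grey square at 686, and for MT-CO1 they lie on either side of the square at 166 and 588.

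Others lay on opposite sides of untreated wild type. With the untreated mutant above and treated wild type below it, SLC13A4, a sulphate transporter, was at 13.6, 4.99 and 44.0 RPKM in untreated wild type, treated wild type and the untreated mutant (2.92 [2.42, 3.92]), and NRXN2, a synaptic adhesion protein, at 19.6, 9.67 and 70.8 (2.76 [2.56, 3.21]). NANOS3, MT-CO1, TMPRSS9 and SAMD9 were the other 4 of 6. In the reverse order BAIAP2, an adaptor of actin signalling, was at 38.4, 60.5 and 21.9 (−1.41 [−2.15, −0.82]) and LRRC6, needed for dynein arm assembly in cilia, at 33.0, 82.4 and 7.08 (−3.35 [−4.98, −2.39]). TIMM9 (3 reads in the untreated mutant), FAM229B (2), BLOC1S3 (5) and GADD45G (3) followed, with intervals that ended between −0.17 and 0.01.

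The ratio also went with features of the coding sequence. Split into 5 groups of equal size by coding length, the median ran from −0.09 in the shortest group (up to 717 bases) to 0.15 in the longest (2283 bases and over). By GC content it was −0.09 in the group with least GC (up to 44.0%) and 0.18 in the group with most (over 60.9%). By mean level it ran from 0.19 in the lowest group to −0.14 in the highest. Spearman coefficients across genes were 0.15, 0.18 and −0.19 over 9612, 9544 and 9612 genes of the same 2 libraries, and genes are not independent replicates. The part of length, GC content and level in the list medians was not tested.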

How the data were processed

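The authors deposited 1 value in RPKM per transcript for each library, with only values above 0 listed, so an absent transcript was read as 0. Per the submitters' processing notes, tools were cutadapt and STAR and the build was GRCh38. Their roles and versions, the counting step and the annotation are not given there. Of 16292 transcripts, 16172 matched GENCODE 29, whose symbols and coding lengths were used. RPKM times coding length gave whole reads, within 0.001, for 99.2% of matched transcripts in each library. Lengths of 239 further transcripts were solved from the values. Reads stayed unknown for 69, none of them among genes analysed.

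The 9612 genes analysed had a 4-library mean of 5 RPKM or more. Ratios are log2(RPKM + 1), which understates changes of low genes, minus the median (−0.01). Intervals are exact Clopper-Pearson intervals of recovered reads. The functions were tested on simulated data. Python 3.11.15 and scipy 1.17.1 were used.

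Members and gene lists were chosen with earlier results of these data known. Genes named were RPL4, all mitochondrially encoded and heat-shock genes, the 12 highest and lowest with a mean of at least 20 RPKM by the interval bound nearest 0, 6 alike (ratio within 0.5 of 0) and 6 opposite genes each way, the 5 most-read transcripts of each library, and in each list the 4 most abundant and the 2 most extreme members. Of the genes this rule takes, 1 is not reported here. The 9 alternatives changed the pseudocount, the filter on low values or the scaling. A split by lysine and arginine content was not run, since no protein table was used here.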

Additional observations from a re-analysis of the deposited data

How the results depend on the processing

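No paired analysis was possible because each group has 1 library and nothing in the labels links libraries. The counts of genes moved with the filter and the pseudocount. At 2-fold, 291 higher and 161 lower genes were counted with a pseudocount of 5 RPKM, 1563 and 879 with no filter, 184 and 95 with a mean of 20 RPKM or more, and 183 and 50 with at least 20 reads expected in both libraries. At 1.5-fold the last 3 filters gave 3114 and 2206, 576 and 406, and 557 and 332. Scaling moved every list by one amount: TMM factors put the median gene at −0.09 and a common sum without transcripts over 0.5% of reads put it at 0.12. With TMM the medians were −0.38 for large-subunit and −0.46 for small-subunit proteins, −0.52 for elongation factors, −0.15 for nuclear oxidative phosphorylation, −0.17 for mitochondrial ribosomal proteins, −0.36 for proteasome subunits and −0.26 for histones. With the common sum they were −0.16 and −0.25 for the ribosomal lists, −0.083 for initiation factors, −0.10 for ribosome biogenesis, 0.19 for nonsense-mediated decay, 0.061 for nuclear oxidative phosphorylation, 0.047 for mitochondrial ribosomal proteins, −0.20 for the spliceosome and −0.16 for G2 and M phase. Immediate early genes were at −0.39 with at least 20 reads expected. Of 34 list medians, 26 kept their sign under all 9 alternatives, 23 of them below 0. Those that did not were DNA replication, interferon, lysosome and autophagy, mitochondrial ribosomal, nonsense-mediated decay, nuclear oxidative phosphorylation, stalling and unfolded protein response genes. Mitochondrially encoded genes ranged from 1.06 to 1.27 and heat-shock genes from −0.60 to −0.38. GAPDH, near 0, was at −0.067 with TMM factors.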
